A study of Mus musculus with 4 samples.

Results

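Vascular and meningeal cells were taken from Drop-seq counts of the mouse cerebral cortex at postnatal day 7 (P7). They were selected on the measured counts: a cell was a member when 14 genes of blood vessels and their coverings (Cldn5, Flt1, Pecam1, Cdh5, Tek, Kdr, Ptprb, Rgs5, Igfbp7, Col4a1, Col1a1, Col1a2, Col3a1 and Ogn) together gave at least 3 unique molecular identifiers (UMIs, each standing for 1 captured transcript), came from at least 2 of the genes and made up at least 0.1% of the cell's UMIs. Of 2413 barcodes, 1598 had a mitochondrial share of at most 10%, and 88 of these (5.51%) met the rule. The levels of the 14 genes in members are therefore a description and were not tested.

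The study asked how loss of the DNA topoisomerase TOP1 from excitatory neurons changes the cortex. WT mice were Top1 f/f without Cre and Top1 cKO mice were Top1 f/f; NEX-cre +/-, so both genotypes carried the floxed allele. All 4 mice were male, with the strain given as C67/Bl6. NEX (Neurod6) drives Cre in postmitotic excitatory neurons, and vascular and meningeal cells are not its target. Cells are marked WT1, WT2, KO2 or KO3 in the table. Both WT labels match a mouse, while the 2 cKO mice are numbered differently from the cKO labels, so cKO cells were taken as 1 pooled sample and both labels are given beside it. With cKO as a single pooled sample, genotypes could not be compared over replicates, so their values carry counting intervals and no test.

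Brain capillaries are lined by endothelial cells, whose tight junctions and transporters form the blood-brain barrier. Mural cells, the pericytes and smooth muscle cells, wrap the endothelium and share a basement membrane of type IV collagen and laminin with it. Fibroblasts of the meninges and of larger vessels produce fibrillar collagen, and vessels of the postnatal cortex are still branching and maturing at this age.

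Depth was uneven among members. The 88 cells held 715437 UMIs, with a median of 2650 per cell against 2276 in the 1510 other cells. Barcodes with over 20000 UMIs numbered 4 and held 55.8% of all member UMIs. A WT1 barcode of 164014 UMIs carried 72.4% of the WT1 member total, KO3 barcodes of 108864 and 98214 UMIs carried 62.9% of the KO3 total, and a WT2 barcode of 28446 UMIs carried 38.9% of the WT2 total. The WT1 barcode and both KO3 barcodes lay just above the lower limit, at 0.118%, 0.107% and 0.136% of UMIs from the 14 genes, and held 160, 94 and 83 UMIs of excitatory neuron markers, whereas the WT2 barcode had 1.36%. Results on summed counts are therefore also given without these 4 barcodes, a choice made after seeing the data. Another 18 cells outside the members also exceeded 20000 UMIs and were left out of the comparison group in that setting. Of all barcode sequences, 1 occurred under 2 labels, and it was not a member.

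Many members were close to the limits of the rule. The 14 genes made up between 0.101% and 3.29% of a member's UMIs with a median of 0.274%, and the nearest cell outside stood at 0.0984%. Exactly 3 UMIs were counted in 26 members, 36 members lay between 0.1% and 0.2%, and 23 reached 1%. Outside the rule, 61 cells had 2 UMIs from 2 of the genes, 13 had 3 or more UMIs from 1 gene only, and 35 had enough UMIs from at least 2 genes but fell short of 0.1%.

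The label was checked with vascular genes that the rule did not use, in 3 lists: 18 endothelial, 12 mural and 17 fibroblast genes. Summed, these check genes reached 19224 CPM (UMIs of the genes scaled to a common total of UMIs, the usual unit of count tables) in the 41 members at or over 0.3%, 3553 in the 47 members under 0.3% and 1774 in the other cells. Over single cells, the medians were 12831, 2423 and 1243 CPM in the same order. In the 447 other cells that met the like rule for excitatory neurons the median was 1004, with a median depth of 3349 UMIs. Members at or over 0.3% thus carried much more of these genes than other cells, whereas members under 0.3% were nearer to the other cells. Without the barcodes over 20000 UMIs, the 3 sums were 21210, 2613 and 1307.

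**Figure D1:**
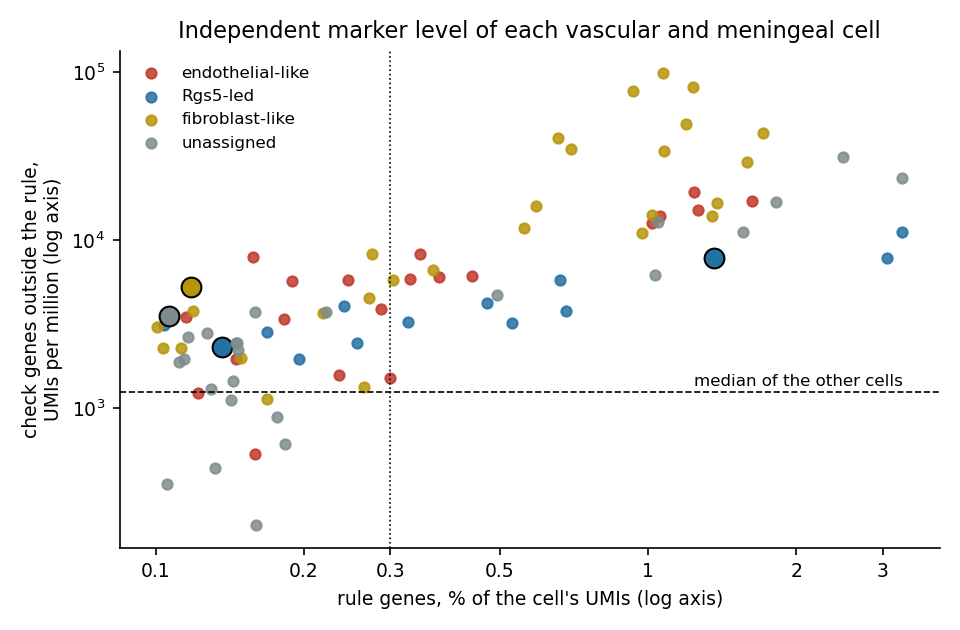
Each point is 1 of the 88 members, plotted by the share of its UMIs from the 14 rule genes (horizontal, log axis) and by its check genes outside the rule in CPM (vertical, log axis). Large outlined points are the 4 barcodes over 20000 UMIs, the dotted line marks 0.3%, and 1 member with no check UMI is drawn at the lower edge. Of the 9 members under the median of the other cells, 0 had rule genes at 0.3% or more.

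Markers of other cell types were present in many members. Under the same kind of rule built on their own markers, 25 of 88 members also met the astrocyte rule (28.4%, against 16.4% of other cells), 17 the hemoglobin rule of red blood cells (19.3%, against 8.54%), 16 the excitatory rule (18.2%, against 29.6%), 6 the inhibitory rule and 1 the microglial rule. For oligodendrocytes and choroid plexus it was 0 of 88. The 6 excitatory markers summed to 805 CPM in members (95% counting interval 741 to 874) and to 1000 in other cells (975 to 1025). Excitatory RNA was thus present in members, at a lower level than in the rest of the table, and its part in the results was not tested. The large barcodes of WT1, KO3 (both) and WT2 held 160, 94, 83 and 26 of the members' excitatory marker UMIs.

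Between 4.03% and 6.02% of the cells in each sample were members. They were 16 of 397 cells in WT1 (4.03%, exact binomial 95% interval 2.32 to 6.46), 17 of 287 in WT2 (5.92%, 3.49 to 9.31) and 55 of 914 in pooled cKO (6.02%, 4.57 to 7.76). Among cKO cells, 27 of 370 with label KO2 (7.30%) and 28 of 544 with label KO3 (5.15%) were members. All of these intervals overlapped, and they cover counting error only. The order of the samples rested on the limit: at 0.3%, 3 cells remained in WT1 (0.756%, 0.156 to 2.19), 13 in WT2 (4.53%, 2.43 to 7.62) and 25 in cKO (2.74%, 1.78 to 4.01). At that limit the WT mice lay further from each other than from the cKO sample, which fell between them. With every cell thinned to 1000 UMIs the shares were 0.756%, 4.18% and 3.52%. Fewer cells of a type in the tissue and fewer such cells captured or kept cannot be told apart here.

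**Figure D2:**
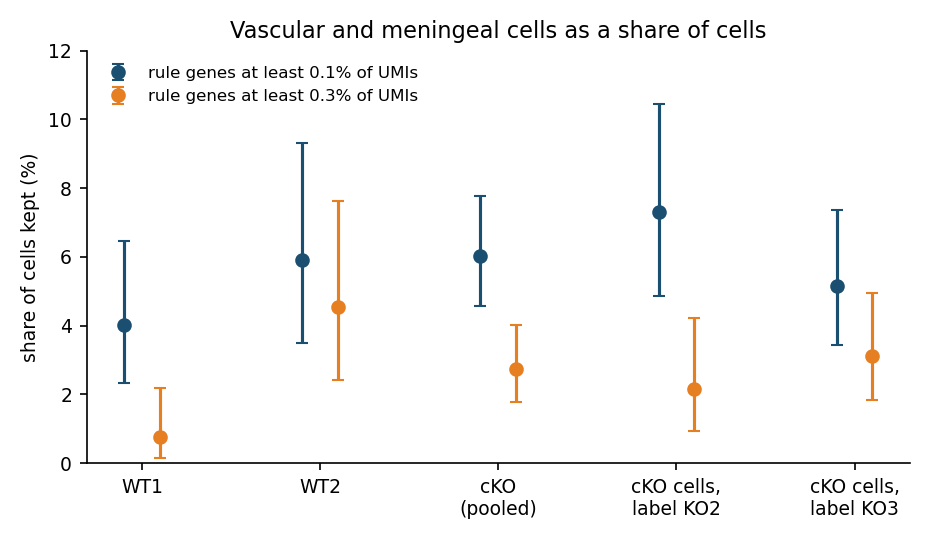
Share of kept cells (vertical axis, %) that met the rule in each WT mouse, in the pooled cKO sample and under both cKO labels, at the limit of 0.1% and at 0.3% of UMIs, with exact binomial 95% intervals as bars. WT1 falls from 4.03% to 0.756% when the limit is raised, while WT2 falls from 5.92% to 4.53%.

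Members were divided by the list with the most UMIs, at least 2 and at least 2 times the next list. The endothelial list was Cldn5, Flt1, Pecam1, Cdh5, Tek, Kdr and Ptprb, the mural list Rgs5, Kcnj8, Abcc9, Pdgfrb, Notch3, Cspg4 and Higd1b, and the fibroblast list Col1a1, Col1a2, Col3a1, Ogn, Lum and Dcn. This gave 20 endothelial-like, 14 mural and 29 fibroblast-like cells and left 25 unassigned. Of the unassigned cells, 12 had no list at 2 UMIs and 9 had both endothelial and mural genes at 2 or more.

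Summed over each group, independent genes separated the endothelial-like and the fibroblast-like cells, but not the mural cells. The endothelial check genes summed to 6395 CPM in endothelial-like cells (5791 to 7044), 1976 in mural and 2020 in fibroblast-like cells. The fibroblast check genes summed to 9129 CPM in fibroblast-like cells (8780 to 9488), 931 in mural and 793 in endothelial-like cells. The mural check genes, by contrast, summed to 772 CPM in mural cells (648 to 913) and 665 in fibroblast-like cells (573 to 767), against 140 in endothelial-like cells. Vtn, a pericyte marker in brain, had 40 UMIs in mural and 93 in fibroblast-like cells. The 14 cells are therefore called the Rgs5-led group below. Without the large barcodes, 12 cells of it remained, with 1051 CPM of mural check genes against 1070 in fibroblast-like cells. The sums do not hold for every single cell. Endothelial check UMIs in endothelial-like cells ran from 0 to 118, and the next highest cells held 68 and 56. They outnumbered fibroblast check UMIs in most of these cells but not in all, with 1 against 5 in a KO2 cell. Of 20 endothelial-like cells 9 were at or over 0.3%, as were 17 of 29 fibroblast-like cells.

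**Figure D3:**
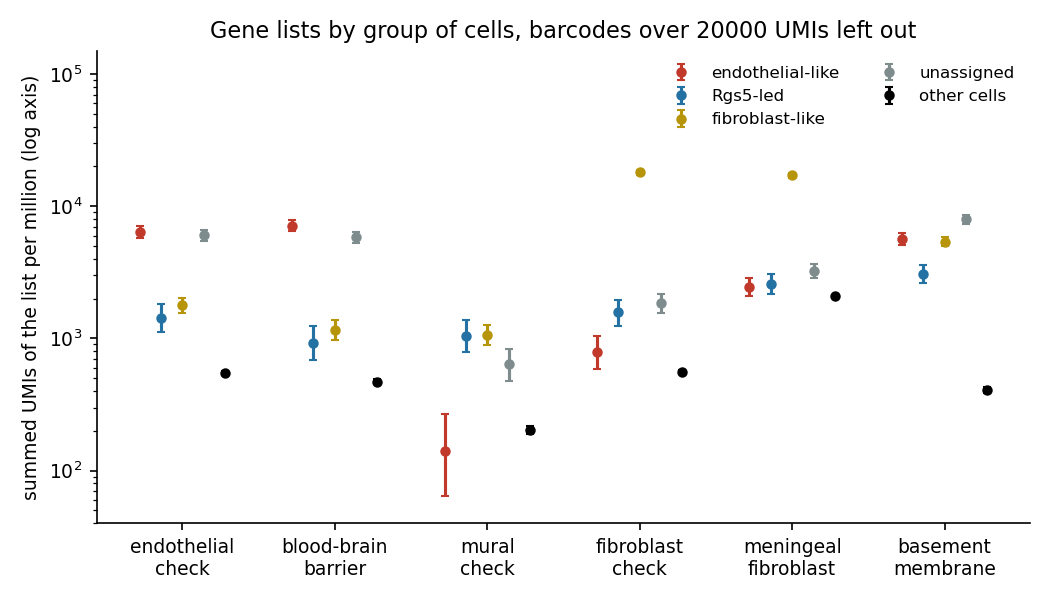
Summed CPM (vertical, log axis) of 6 gene lists in the endothelial-like, Rgs5-led, fibroblast-like, unassigned and other cells, without barcodes over 20000 UMIs, with exact Poisson 95% intervals. The blood-brain barrier list holds Cldn5 and the basement membrane list Col4a1, both used by the rule. The mural check list is about level between the Rgs5-led (1051) and the fibroblast-like cells (1070).

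All 3 groups were present under each label in small numbers, but the endothelial-like cells of WT1 were lost at stricter settings. They numbered 0 among members at or over 0.3% and 0 without cells that met another class rule. WT1 held 2 endothelial-like, 3 Rgs5-led, 5 fibroblast-like and 6 unassigned cells. WT2 held 3, 2, 7 and 5 cells in that order, label KO2 held 8, 4, 6 and 9, and label KO3 held 7, 5, 11 and 5. Endothelial-like cells were 5 of 33 WT members (15.2%, 5.11 to 31.9) and 15 of 55 cKO members (27.3%, 16.1 to 41.0). Fibroblast-like cells were 36.4% of WT members (20.4 to 54.9) and 30.9% of cKO members (19.1 to 44.8), and Rgs5-led cells were 15.2% (5.11 to 31.9) and 16.4% (7.77 to 28.8). Every one of these intervals overlapped between genotypes. Among members at or over 0.3%, endothelial-like cells were 2 of 16 in WT and 7 of 25 in cKO.

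The endothelial genes of the rule were seen in few cells each. Cldn5, the main claudin of endothelial tight junctions, had 167 UMIs in 36 members, of which 28 were in WT1, 45 in WT2, 23 under KO2 and 71 under KO3. Flt1, a receptor for VEGF, had 216 UMIs in 31 members (19, 56, 25 and 116 in the same order), and Kdr, the main signaling receptor for VEGF, had 131 in 23 members. Flt1 was detected in 35.2% of members and in 2.24% of excitatory rule cells. Ptprb, a phosphatase that acts on the angiopoietin receptor, had 180 UMIs, Tek, that receptor, had 59, and the junction proteins Cdh5 and Pecam1 had 54 and 48. For Kdr, 31 UMIs lay in the Rgs5-led group with the large barcodes and the level was 176 CPM there, against 20 without them and 467 in endothelial-like cells.

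The promoter windows of Flt1, Kdr and Tie1 (a further endothelial receptor) are shown because all 3 genes mark endothelial cells and hold the letters GGAAGT, the core sequence bound by ETS factors such as Erg and Ets1, which were higher in members (below). Each window runs from 250 bases before to 50 bases after the RefSeq start on build GRCm38.p6, 5′ to 3′ on the gene's strand (minus for all 3), with GGAAGT or its complement ACTTCC in capitals.
Flt1, chr5:147725962-147726261: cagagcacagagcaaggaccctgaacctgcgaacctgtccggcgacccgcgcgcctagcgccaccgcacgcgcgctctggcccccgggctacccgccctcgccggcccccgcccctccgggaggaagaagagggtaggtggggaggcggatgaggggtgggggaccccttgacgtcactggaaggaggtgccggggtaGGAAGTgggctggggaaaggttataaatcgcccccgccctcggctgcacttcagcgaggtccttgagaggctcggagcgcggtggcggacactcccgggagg
Kdr, chr5:75978406-75978705: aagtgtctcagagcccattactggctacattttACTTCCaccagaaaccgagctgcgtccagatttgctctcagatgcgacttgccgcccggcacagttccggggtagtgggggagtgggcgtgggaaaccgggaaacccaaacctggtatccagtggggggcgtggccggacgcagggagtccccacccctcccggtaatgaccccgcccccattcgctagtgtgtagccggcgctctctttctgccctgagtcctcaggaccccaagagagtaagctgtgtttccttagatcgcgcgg
Tie1, chr4:118489800-118490099: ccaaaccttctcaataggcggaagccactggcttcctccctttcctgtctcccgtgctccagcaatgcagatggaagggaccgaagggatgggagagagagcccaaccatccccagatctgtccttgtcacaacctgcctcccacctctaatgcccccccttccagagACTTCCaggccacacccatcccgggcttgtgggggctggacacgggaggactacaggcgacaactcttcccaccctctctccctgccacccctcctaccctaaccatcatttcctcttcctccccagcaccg
No other motif was searched. On either strand, GGAAGT was found in 2 of 4 endothelial rule genes and 5 of 12 endothelial check genes with a window, in 0 of 5 mural and 0 of 3 fibroblast genes of the assignment lists, and in 2 of 9 mural and 2 of 14 fibroblast check genes. Of all genes with a window, 26.5% had it, as did 5 of 19 genes among the 25 described next. A match is only a description of these letters.

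Rgs5, a regulator of G protein signaling that marks pericytes, was the most counted rule gene, with 767 UMIs in 40 members. WT1 held 121 of these, WT2 282, label KO2 70 and label KO3 294. The highest single cell held 195 of them. Of the others, 33 UMIs were in fibroblast-like, 3 in endothelial-like and 270 in unassigned cells. Igfbp7 (280 UMIs), a secreted vascular protein, and Col4a1 (296 UMIs), a chain of type IV collagen, were spread over the groups, with Col4a1 at 545, 551 and 173 CPM in endothelial-like, Rgs5-led and fibroblast-like cells. Without the large barcodes Col4a1 was at 371 CPM in fibroblast-like cells. Among the fibrillar collagens, Col1a2 had 408 UMIs in 46 members, Col3a1 178 in 33 and Col1a1 137 in 29, and 358, 157 and 124 of these were in fibroblast-like cells. Ogn, a small proteoglycan, had 99 UMIs, of which 90 were in that group.

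To ask what members shared beyond the rule, UMIs were summed over members and over other cells of WT1, WT2 and pooled cKO, and these 6 sums were tested with edgeR's quasi-likelihood test with a term for the sample, leaving out the 14 rule genes. Of 8693 genes tested, 202 were higher in members (2.32%) and 29 lower (0.334%) at a Benjamini-Hochberg adjusted p under 0.05. Among those higher in all 3 samples with at least 20 member UMIs, the 25 genes with the largest fold had log2 folds of 3.65 to 5.67. They included Lox, Cd93, Itga1, Mylk, Cped1, Cgnl1, Gpr116, Fmod, Kank2, Erg, Fam180a, Eng, Tie1, Abcb1a, Fbln5, Aebp1, Mcam, Nid1, Slc22a8, Thbd, Uaca, Prnd, Tns1 and Eltd1. The test has 3 samples, 1 of them pooled from 2 mice, and shows how members differ from other cells and not how genotypes differ.

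Several of these 25 genes are known from endothelial cells. Cd93, a receptor of endothelial cells, was at 70.6, 452 and 228 CPM in WT1, WT2 and cKO members. In the other cells it was at 12.5, 2.07 and 3.07 (log2 fold 4.83 ± 0.58, approximate SE, 3 samples). Being higher in members of all 3 samples was a condition for naming these 25 genes. Genes this low in other cells passed the filter on low counts only through members, so their folds describe members and do not test them. A Cd93 UMI was found in 27.3% of members and 1.34% of excitatory rule cells. The adhesion receptor Gpr116 was at 39.7, 411 and 255 CPM in members and at 8.34, 6.21 and 6.53 in others (log2 fold 4.49 ± 0.48). The coreceptor Eng was at 39.7, 315 and 45.7 CPM in members and at or under 7.58 in others (log2 fold 4.11 ± 0.59). The receptor Tie1 was at 22.1, 109 and 52.9 CPM in members and at or under 3.11 in others (log2 fold 4.09 ± 0.64). WT1 members had the lowest level of each of these 4 genes among the 3 samples, beside a member total of which 72.4% came from 1 barcode.

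Matrix and contractile genes accounted for others. Lox, which crosslinks collagen, had 49 UMIs in members, all of them in fibroblast-like cells. It was at 26.5, 164 and 74.6 CPM in WT1, WT2 and cKO members against 1.52, 0.00 and 1.15 in other cells (log2 fold 5.67 ± 0.71). Lox too passed the filter only through members. Fmod, a collagen-binding proteoglycan, had 59 of 61 UMIs in fibroblast-like cells (log2 fold 4.33 ± 0.60), and Aebp1 107 of 119. Thbd, the thrombin receptor thrombomodulin, is known from endothelium, but 43 of its 46 UMIs here were in fibroblast-like cells and 1 in endothelial-like cells. Mylk, the kinase of smooth muscle myosin, had 19 of 35 UMIs in the Rgs5-led group and 0 in endothelial-like cells (log2 fold 4.53 ± 0.72). Without the large barcodes 13 of the 25 genes still passed the filter on low counts, and all 13 were higher at an adjusted p under 0.05. All 25 had a higher CPM in members without these barcodes. The genes had been picked by their folds in an overlapping set of cells, so these values are a description and not an independent test.

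Barrier and endothelial lists were mostly higher. Of 18 endothelial check genes, 12 passed the filter and 12 were higher, with a median log2 fold of 2.86 beside -0.08 for all genes tested. A gene expressed mainly in members can pass this filter only through them, so such counts describe the lists and do not test them. Of 17 blood-brain barrier genes outside the rule, 15 were tested and 12 were higher. They included the drug efflux pump Abcb1a (log2 fold 4.01 ± 0.58), the lactate carrier Slc16a1 (3.33 ± 0.48), the glucose carrier Slc2a1 (2.93 ± 0.47), the tricellular junction receptor Lsr (3.06 ± 0.62), the amino acid carriers Slc38a5 (2.89 ± 0.49) and Slc7a1 (2.06 ± 0.36), the thyroid hormone carrier Slco1c1 (2.46 ± 0.38), the lipid carrier Mfsd2a (2.22 ± 0.54) and the transferrin receptor Tfrc (1.82 ± 0.37). Slc7a5, Abcg2 and Cgn did not pass, at log2 folds of 1.72 ± 0.46, 1.02 ± 0.53 and 0.33 ± 0.70. Of 15 endothelial transcription factors, 5 were tested and 4 were higher: Erg (4.26 ± 0.70), Ets1 (3.38 ± 0.54), Epas1 (2.76 ± 0.57) and Elk3 (2.68 ± 0.53).

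The matrix lists behaved likewise. Of 12 basement membrane genes outside the rule, 10 were tested and 9 were higher, among them Col4a2 (log2 fold 3.59 ± 0.43), the nidogens Nid1 (3.76 ± 0.44) and Nid2 (3.50 ± 0.75), the laminin chains Lama4 (3.23 ± 0.57) and Lamc1 (3.22 ± 0.47) and fibronectin, Fn1 (3.18 ± 0.45). Of 14 meningeal fibroblast genes, 9 were tested and 7 were higher: the transcription factors Foxd1 (5.17 ± 1.15) and Foxc1 (3.10 ± 0.74), the retinoic acid enzyme Aldh1a2 (3.14 ± 0.64), the growth factor Igf2 (3.48 ± 0.55), the chemokine Cxcl12 (2.93 ± 0.51), the GABA carrier Slc6a13 (2.65 ± 0.65) and the prostaglandin D synthase Ptgds (2.46 ± 0.46). Ptgds was also counted in 48.8% of excitatory rule cells, and other cells had 503, 320 and 441 CPM in WT1, WT2 and cKO. Of 12 fibrillar matrix genes outside the rule, 6 were tested and 4 were higher, and of 17 fibroblast check genes 12 were tested and 9 were higher.

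For the mural and signaling lists the counts were low and moved with the choice of members. Of 12 mural check genes, 4 were tested and 2 were higher, Vtn (3.25 ± 0.65) and Myl9 (1.96 ± 0.44). Vtn was at 22.1 CPM in WT1 members and 30.7 in other WT1 cells, so it was not higher in that mouse. Of 15 VEGF and Notch genes outside the rule, 7 were tested and 0 were higher, with Jag1 at 2.54 ± 0.84 and Nrp1 at 0.62 ± 0.27. Of 13 Wnt genes, 8 were tested and 2 were higher, Fzd6 (3.47 ± 0.65) and Nkd1 (3.01 ± 0.52), and of 14 PDGF and TGF-beta genes 9 were tested and 2 were higher, Eng and Tgfbr2 (2.97 ± 0.68). Of 16 activation and MHC genes, 8 were tested and 1 was higher, B2m (1.25 ± 0.29). The hypoxia list had 1 higher, Slc2a1, and the p53, cell cycle and immediate early lists had 0 higher among 9, 9 and 8 tested. Without the large barcodes, 4 activation and MHC genes, 1 VEGF and Notch gene and 0 cell cycle genes were higher, and among members at or over 0.3% these counts were 6, 2 and 3. Calls rose over all genes as well, from 202 of 8693 to 325 of 8109 and 475 of 7785 in these settings, so the rise was not confined to the lists. At 0.3% the mural check list had 3 genes higher and the PDGF and TGF-beta list 4. Levels of genes that were not tested were too low for a statement.

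**Figure D4:**
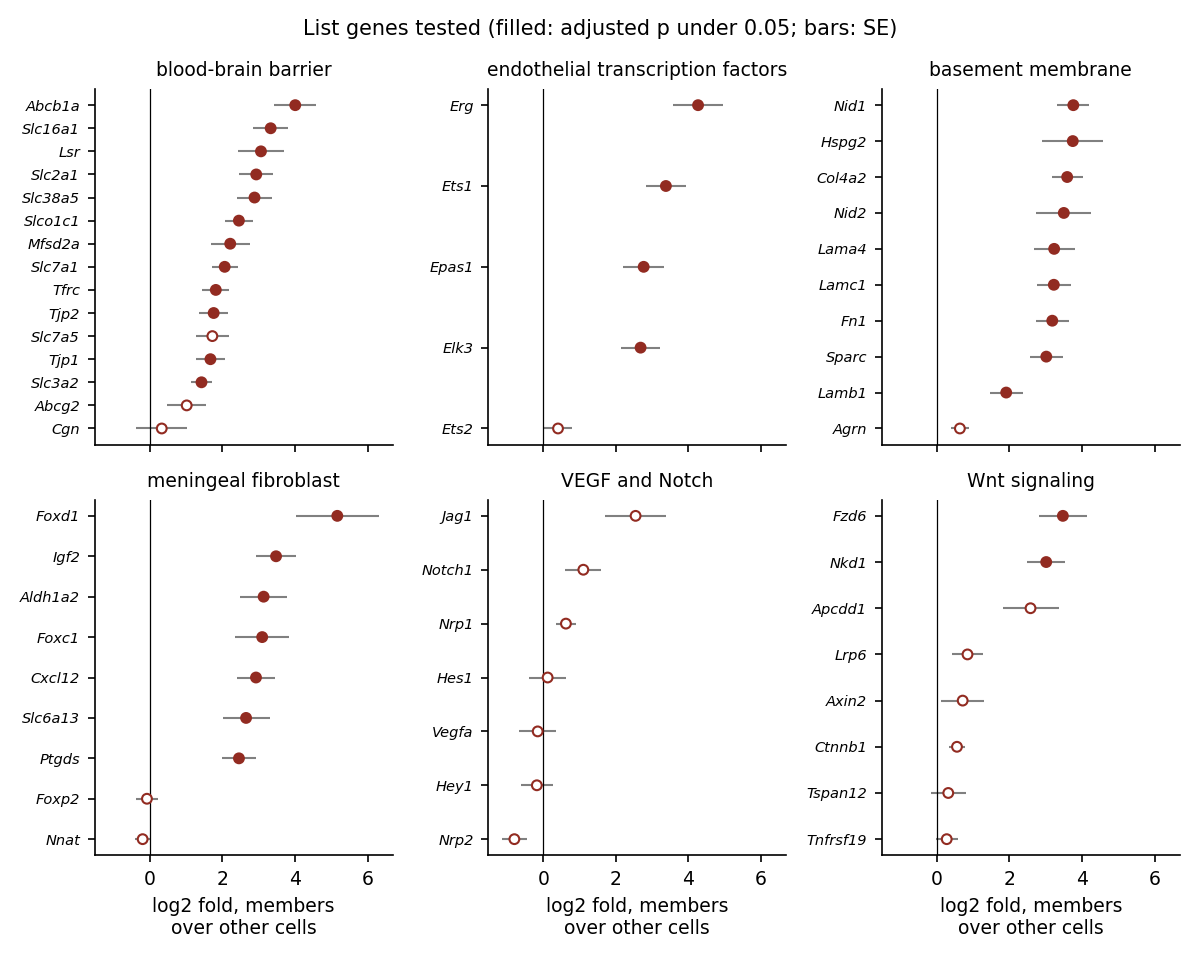
Log2 fold (horizontal axis) of the tested genes of 6 lists in members over other cells, rule genes left out. Bars are approximate standard errors, and filled points have an adjusted p under 0.05. In the blood-brain barrier list 12 of 15 points are filled, in the basement membrane list 9 of 10, and in the VEGF and Notch list 0 of 7.

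Of the other classes' markers, Gja1, a gap junction gene of astrocytes that meningeal fibroblasts also express, was higher in members (log2 fold 1.81 ± 0.27), and 262 of its 326 UMIs were in fibroblast-like cells. The other 5 astrocyte markers had log2 folds from -0.97 to -0.22, and the 6 excitatory, 6 inhibitory, 7 microglial, 4 tested oligodendrocyte and 4 hemoglobin genes had 0 called either way. Ttr, the defining gene of choroid plexus, and the other 5 genes of its list were below the filter.

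The 3 groups were then set against each other, each against the mean of the other 2, on 7 sums by sample with edgeR, leaving the assignment genes out of what is reported. Endothelial-like cells of WT1 and Rgs5-led cells of WT2 numbered 2 each and were not summed. Of 1416 genes tested, 24 were higher in endothelial-like cells (1.69%), 47 in fibroblast-like cells (3.32%) and 1 in the Rgs5-led group (0.0706%), which was Rgs5 itself, an assignment gene. No gene outside the lists thus marked the Rgs5-led group over all members at this depth, where 19 genes were higher at an unadjusted p under 0.05 and DESeq2 also called 1. Without the large barcodes 2 of 428 genes tested were called higher in it, Rgs5 among them.

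Outside the assignment genes, the 8 largest folds of endothelial-like cells were Ly6c1, Afap1l1, Ets1, Apold1, Cd93, Mfsd2a, Slco1c1 and Vwa1. A gene such as Apold1, with 17 UMIs in the endothelial-like sums and 4 in the others, passed the filter only through the former. Such folds describe the group and do not test it. Cd93 had 50 UMIs in endothelial-like, 37 in Rgs5-led, 13 in fibroblast-like and 44 in unassigned cells (log2 fold 4.38 ± 0.83, edgeR adjusted p = 3.2e-05). Mfsd2a, a lipid carrier of the barrier, had 30 of 70 UMIs in endothelial-like cells (log2 fold 4.34, edgeR adjusted p = 0.0045), and Slco1c1 had 41 of 168 (4.30 ± 0.86). Of 9 barrier genes tested, 6 were higher in endothelial-like cells: Mfsd2a, Slc16a1, Slc7a1, Slc7a5, Slco1c1 and Tfrc. With DESeq2, Mfsd2a (adjusted p = 0.0197) and Slco1c1 (0.0113) remained under 0.05, while Slc16a1 (0.0517), Slc7a5 (0.0517), Slc7a1 (0.158) and Tfrc (0.204) did not, and with no margin between the lists edgeR called 0 genes, with 30 higher at an unadjusted p under 0.05. DESeq2 called 8 genes in place of 24, and without the large barcodes 15 of 428 genes tested were called, Cd93 and Slco1c1 among them.

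In fibroblast-like cells the 8 largest folds outside the assignment genes were Fmod, Lox, Lgals1, Trabd2b, Nbl1, Gpc3, Hlf and Bicc1. Gpc3, a heparan sulfate proteoglycan, had 66 UMIs in the fibroblast-like sums and 3 in the others (log2 fold 6.55 ± 1.18). Fmod, Lox, Lgals1 and Trabd2b had 59, 49, 49 and 32 UMIs there and 0 in the other sums, and DESeq2 gave each an adjusted p of 0.996. These genes and Gpc3 passed the filter only through the fibroblast-like sums, so their folds describe that group and do not test it. Of the fibroblast check genes 6 passed the filter, some of them only through the fibroblast-like sums, and 6 were higher: Ptgds with 1372 of 1409 UMIs in fibroblast-like sums (log2 fold 5.40 ± 0.63), Igf2 with 636 of 693 (3.99 ± 0.55), Islr, Col6a1, Col6a2 and Fstl1. With DESeq2 the calls of Col6a1 (adjusted p = 0.472), Col6a2 (0.357) and Fstl1 (0.202) were lost. The WT1 barcode of 164014 UMIs is among these cells. With the large barcodes left out 25 genes were called, and Ptgds (4.84) and Igf2 (3.80) were among them.

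Top1, the floxed gene (chr2:160645897-160722764, GRCm38), was counted in members of every sample. It had 94 UMIs in WT1 members (415 CPM, exact Poisson 95% interval 335 to 508), 50 in WT2 (684, 508 to 902) and 120 in pooled cKO (289, 239 to 345), with 23 under label KO2 (266, 169 to 400) and 97 under KO3 (294, 239 to 359). The cKO level was below both WT mice, with a log2 ratio of -0.76 (95% counting interval -1.13 to -0.41). After leaving out the large barcodes the levels were 368, 852 and 297 CPM and the log2 ratio was -0.96. In excitatory rule cells Top1 was at 423 and 492 CPM in WT1 and WT2 and at 173 in cKO, and in inhibitory rule cells at 643, 529 and 469. In astrocyte rule cells it was at 329, 560 and 343 CPM, with cKO between the WT mice. Astrocyte rule cells without the large barcodes were at 516, 560 and 387 CPM, with cKO below both WT mice. Inhibitory rule cells were then at 643, 529 and 540 CPM, with cKO between the WT mice, and excitatory rule cells at 554, 492 and 155. Which exons the deletion removes is not given in the sources used here, so these counts do not show what share of cells had lost the gene.

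Top1 was not called between the groups, with log2 folds of -0.47, 0.19 and 0.28 in endothelial-like, Rgs5-led and fibroblast-like cells. Its genotype ratio moved with the choice of members. In CPM, Top1 was at 471 in WT and 288 in cKO endothelial-like cells (216 to 895 and 153 to 492). It was at 483 and 327 in the Rgs5-led group (295 to 746 and 237 to 438) and at 450 and 397 in fibroblast-like cells (362 to 551 and 270 to 563). Unassigned cells were at 666 and 203 (422 to 1000 and 139 to 286), and theirs were the only intervals of the 4 groups that did not overlap. Without the members that also met the rule of a neuron or glial class, the log2 ratio of all members was -0.25, from 30 WT and 37 cKO UMIs, with a counting interval that included 0. The levels were then 257, 583 and 351 CPM in WT1, WT2 and cKO, so that cKO was no longer below both WT mice. Excitatory markers in members were at 949, 602 and 762 CPM in WT1, WT2 and cKO, and their part in the Top1 difference was not tested.

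Between genotypes, a gene was called where pooled cKO members differed at least 2-fold from pooled WT members and lay beyond both WT mice. Of 5187 genes with at least 30 UMIs, 195 were higher (3.76%) and 112 lower (2.16%) in cKO. These calls compare the captured cells, and they moved with a few barcodes. Among the 112 lower genes, 91 had over 50% of their WT UMIs in 1 cell, and among the 195 higher genes 7 had over 50% of their cKO UMIs in 1 cell. Without the large barcodes, 67 of the higher and 39 of the lower genes could be compared, of which 39 and 21 were called again and all kept their direction. Among members at or over 0.3%, 18 of 34 higher and 0 of 9 lower genes were called again. Both settings reuse cells that gave the first calls, so these counts are not an independent test.

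The 10 largest ratios upward were Nfasc, Col8a1, Thsd4, Slco1a4, Zfp1, Hba-a2, Hba-a1, Ltbp4, Slc26a2 and Adam22. Slco1a4, an organic anion carrier of the barrier, had 1 UMI in WT1, 2 in WT2, 12 under KO2 and 24 under KO3 (log2 ratio 2.54, 95% counting interval 1.42 to 5.42, and 2.07 without the large barcodes). Thsd4, a matrix protein, had 2, 1, 27 and 12 UMIs in that order, and all 27 of label KO2 were in 1 cell. Col8a1, a chain of type VIII collagen, had 32 UMIs under KO3 and 0 under KO2, of which 24 were in 1 cell. Ly6c1, an endothelial surface antigen, had 7, 2, 6 and 44 UMIs (log2 ratio 1.79, 0.93 to 3.18). Mgp, an inhibitor of matrix calcification, had 14, 0, 4 and 44 UMIs (1.18, 0.39 to 2.25). For Col8a1, Ly6c1 and Mgp most UMIs carried the label KO3, and for Thsd4 most carried KO2, so the differences were not shared evenly by both cKO labels.

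Hemoglobin was the one list with most of its genes called. Hbb-bs had 182 UMIs in WT1, 6 in WT2, 29 under KO2 and 760 under KO3, and 609 of the last were in 1 cell. Hba-a1 had 26, 1, 6 and 176 UMIs, of which 147 were in 1 cell. Without the cells labelled KO3 its log2 ratio was -0.26 in place of 2.18, and that of Hbb-bs was -0.80 in place of 1.55. Hbb-bt, at 0.90 and not called over all members, was at -1.17 and called lower without that label. These are genes of red blood cells.

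The 10 largest ratios downward were Tppp3, Tm7sf2, Mrps24, Nkiras1, Ilvbl, Cib2, S100a10, Atg5, Slc22a6 and Sf3b5. Tppp3, a tubulin-binding protein, had 50 UMIs in WT1, 5 in WT2, 4 under KO2 and 6 under KO3, and 34 of the WT1 UMIs were in 1 cell (log2 ratio -2.70, -4.10 to -1.98). It could not be compared without the large barcodes. Slc22a6, an organic anion carrier found in meningeal fibroblasts, had 9, 17, 4 and 7 UMIs in that order (-1.56, -2.91 to -0.68). Its highest cell held 9 of the 26 WT UMIs, the smallest such share among the 10 genes. Of all 20 genes, 10 could be compared without the large barcodes, and all 10 were called again. The 20 genes had been picked by their ratios in an overlapping set of cells, so this is a description and not an independent test. Without label KO3, however, the calls of Tm7sf2, Mrps24, Cib2, S100a10, Slc22a6 and Sf3b5 were lost, at log2 ratios from -0.85 to -0.54. Without WT1 those of Mrps24 (-0.91) and Cib2 (-0.78) were lost.

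**Figure D5:**
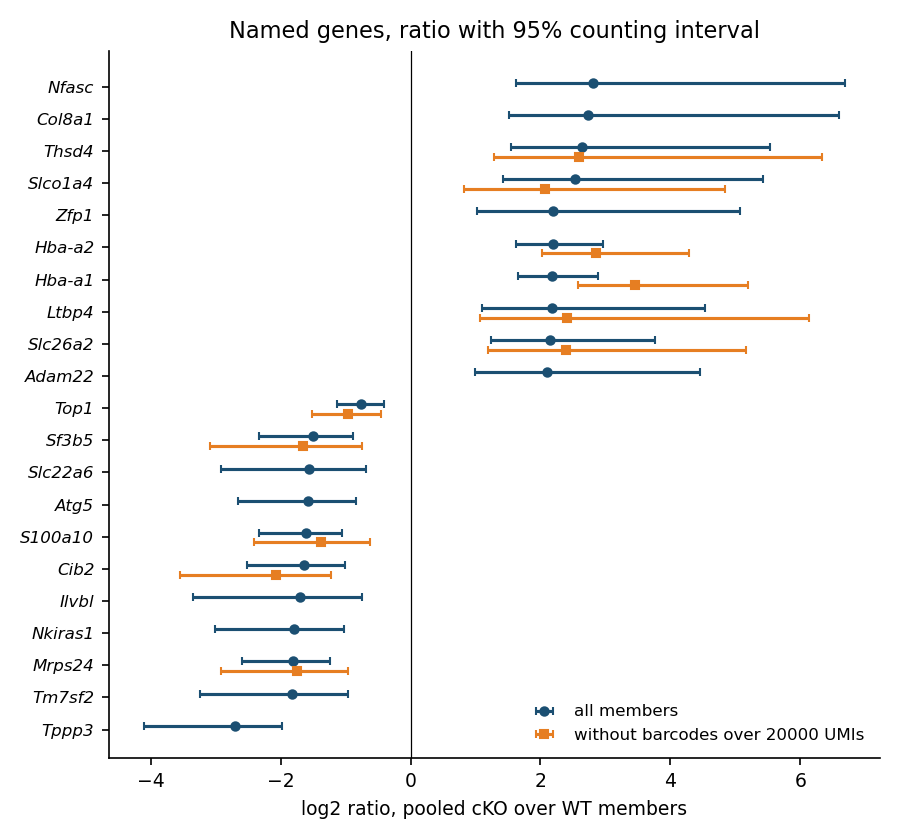
Log2 ratio of pooled cKO over WT members (horizontal axis) for the 20 genes with the largest ratios and for Top1, with 95% counting intervals, over all members and without barcodes over 20000 UMIs where at least 30 UMIs remained. The intervals cover counting error only, and 10 of the 20 genes have no value in the second setting.

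Over the lists of vessel genes and pathways, 92 genes had a ratio, and 5 were higher and 0 lower in cKO, beside 3.76% and 2.16% of all genes: Slco1a4 (barrier), Fbln2 and Mgp (fibrillar matrix), and Tgfb2 and Angpt1 (PDGF and TGF-beta). Of 15 barrier genes the median log2 ratio was 0.05, of 11 basement membrane genes -0.06, of 7 meningeal fibroblast genes -0.24 and of 7 endothelial transcription factors -0.02, beside -0.02 for all 5187 genes. The median of 6 VEGF and Notch genes was 0.02, of 3 p53 targets 0.36, of 5 hypoxia genes -0.17 and of 6 activation and MHC genes -0.67, with 0 called in each. The 3 mural check genes with a ratio had a median of -0.18, also with 0 called. Angpt1 had 8, 0, 4 and 29 UMIs in WT1, WT2, KO2 and KO3, and Tgfb2 6, 4, 12 and 25. With the large barcodes left out, 60 list genes had a ratio, and 10 were higher and 0 lower, beside 121 and 66 of all 2444 genes. Fewer genes of some lists had a ratio in that setting, so the medians of those lists are not over the same genes. The activation and MHC median was -0.67 over 6 genes and then 0.47 over 4, with 2 of the 4 called higher. For endothelial transcription factors it was -0.02 over 7 and then 0.87 over 3, with 1 of the 3 called higher. For the PDGF and TGF-beta list it was 0.10 over 7 and then -0.51 over 2, with 0 of the 2 called. The basement membrane median went from -0.06 to 0.02, over 11 genes both times. The VEGF and Notch median was 0.02 over 6 and then -0.03 over 4. In both of these lists 0 genes were called. The makeup of the samples differs too, with endothelial-like cells at 15.2% of WT and 27.3% of cKO members, and its part in these ratios was not tested.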

How the data were processed

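The authors processed Drop-seq reads with the Drop-seq Toolkit, aligned them to mm10 with STAR and deposited the UMI counts, not normalized, as a single table (19092 genes, 2413 barcodes). The submitters' notes also list hg19, and the gene annotation is not given in the sources used here. Barcodes over 10% mitochondrial UMIs (815) were left out, and a minimum of 300 genes removed 0 more. Doublets were not called. Counts were summed by sample and tested with edgeR 4.0.16 (TMM scaling, filterByExpr, quasi-likelihood F test, Benjamini-Hochberg adjustment over all genes tested) in R 4.3.3, and DESeq2 1.42.0 was an alternative. The standard error (SE) given with an edgeR log2 fold is approximate. It is the absolute log2 fold divided by the square root of the F statistic. The fits were also tested on simulated data. Log2 ratios of cKO over WT used a prior count of 2, and intervals are exact Poisson or binomial at 95% and cover counting error only. With 4 mice, 2 of them pooled, p-values measure the spread of 3 samples.

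Genes named are the rule and assignment genes, the 25 largest folds higher in all 3 samples with at least 20 member UMIs, the 8 largest per group, the 10 largest ratios each way, Top1, list genes with at least 30 UMIs and markers of other classes. Genes with fewer UMIs (Foxd1, Foxc1, Jag1, Tgfbr2, Abcg2 and Cgn among them) and the 8 lowest folds lie outside this rule and were picked with their values in view. The members and lists were chosen with earlier results of these data known. Adgra2 was looked up under its older symbol Gpr124, and Sele was not analysed here. Leaving out barcodes over 20000 UMIs, and the limit of 0.3% in tests, were chosen after seeing the data. Promoter windows are from RefSeq, GRCm38.p6. Of the genes that the rule on names selects, 1 is not reported here.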

Additional observations from a re-analysis of the deposited data

Results flagged for a closer look

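Barcodes left out for a mitochondrial share over 10% also held cells that met the vascular rule, a signal in data that the comparisons did not use. They were 17 of 349 such barcodes in WT1 (4.87%, exact binomial 95% interval 2.86 to 7.68), 9 of 128 in WT2 (7.03%, 3.27 to 12.9) and 13 of 338 in cKO (3.85%, 2.06 to 6.49). These shares overlapped those among the cells kept.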

How the results depend on the processing

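No paired analysis was possible because cells of the cKO sample could not be assigned to mice, so replicate numbers cannot be matched across genotypes. Without barcodes over 20000 UMIs the share of members was 3.90%, 5.59% and 5.86% in WT1, WT2 and cKO. In WT1 (4.03%) it was 6.80% at 2 UMIs, 2.27% at 5 UMIs, 0.756% at 0.3% of UMIs, 6.94% at a mitochondrial limit of 5%, 0.756% with cells thinned to 1000 UMIs and 2.27% without Igfbp7 and Col4a1. In cKO (6.02%) it was 7.77%, 3.72%, 2.74%, 4.11%, 3.52% and 4.49% in the same order, and 8.10% without cells of another class. Members over other cells gave 202 genes higher and 29 lower. No filter gave 381 and 125, a mitochondrial limit of 5% 10 and 0, leaving out large barcodes 325 and 103, and the 0.3% limit 475 and 258. Lower genes were 7 with DESeq2, 12 with library totals, 49 without cells of another class and 1 without the sample term. Leaving out a WT mouse gave 243 to 350 higher and 5 to 91 lower, of which 350 and 5 are without WT1 and 243 and 91 without WT2. Of the 25 named genes, 22 passed with DESeq2, and 2 of the 4 tested passed at a mitochondrial limit of 5%. For genes higher in the groups, endothelial-like went from 24 to 8 (DESeq2), 5 (no filter), 0 (no margin between lists) and 15 (without large barcodes), Rgs5-led from 1 to 0 (no margin) and 2 (without large barcodes), and fibroblast-like from 47 to 10 (DESeq2), 2 (no margin) and 25 (without large barcodes), with 26 to 69 when a WT mouse was left out (26 without WT2). The endothelial-like contrast without WT2 and the Rgs5-led one without WT1 could not be fitted. Genotype ratios gave 195 higher and 112 lower. These became 79 and 31 without cells of another class, 95 and 67 at a mitochondrial limit of 5%, 13 and 14 thinned, 997 and 560 without a filter, 121 and 66 without large barcodes and 57 and 31 at 0.3%. Without label KO3 they were 125 and 186, and without KO2 212 were lower. Without WT1 they were 476 and 291 and without WT2 521 and 317; dropping a mouse changes both the pooled WT level and the mice a gene must lie beyond. The log2 ratio of Top1 (-0.76) was -0.25 without cells of another class and -1.29 to -0.57 when a WT mouse was left out (-1.29 without WT1). List genes higher in cKO (5) were 14 without cells of another class, 10 without large barcodes and 5 to 28 without a WT mouse (28 without WT2). List genes lower (0) were 1 at a prior count of 0.5, 2 without either cKO label and 2 to 44 without a WT mouse (44 without WT1). Without label KO3 the log2 ratio of Hba-a1 turned to -0.26 and that of Hbb-bs to -0.80. At a mitochondrial limit of 5% the calls of Mrps24, Nkiras1, S100a10 and Atg5 were lost, and at 0.3% that of S100a10. The cause of these moves was not tested unless stated. The small number of cells and the median of 2650 UMIs per member limit every count above.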

Other observations

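Of the 29 genes lower in members, 8 with the lowest folds were picked with their values in view. They included the neuronal genes Ncam2 (log2 fold -1.57 ± 0.28), Gabrb1 (-1.70 ± 0.43), Rab3c (-1.23 ± 0.23) and Tenm4 (-1.21 ± 0.30). Rab3c was at 250 CPM in members and 483 in other cells.

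Hemoglobin genes summed to 2101 CPM in members (1996 to 2210) and 992 in other cells (968 to 1017). Unassigned cells had 1179 of the 1503 UMIs, Rgs5-led cells 11. By sample the sums were 1148 CPM in WT1, 205 in WT2, 521 under KO2 and 3591 under KO3.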
